A study of Mus musculus with 12 samples.

Results

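Eph receptors and their ligands, the ephrins, were followed in wild-type mouse stomach organoids with and without Wnt inhibition. The 10 genes described are the receptors Ephb2, Ephb3, Ephb4, Epha1, Epha2, Epha4 and Epha7 and the ligands Efna1, Efnb1 and Efnb2, taken by gene symbol from a table of 55421 genes. They are 10 of the 22 Eph and ephrin genes in that table. All 10 had enough reads to be tested.

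Organoids are 3-dimensional cultures of epithelium, here grown in Matrigel from isolated glands of the corpus (the body of the stomach) or the antrum (its outlet end) and passaged at least 3 times. Each region gave 3 lines, numbered 8025, 8026 and 8028, and each line was cultured both ways, which makes 12 libraries in 4 groups of 3: corpus vehicle, corpus inhibited, antrum vehicle and antrum inhibited. On day 4 after passage, inhibited cultures received XAV939, which blocks tankyrase and so dampens Wnt signalling, labelled as 1 mM, and 100 ng/mL of Noggin, which blocks bone morphogenetic proteins, while added Wnt and R-spondin were taken away. Vehicle cultures received DMSO in normal medium with 50% L-WRN, a medium conditioned by Wnt-, R-spondin- and Noggin-producing cells. RNA was taken 24 h later. The compound and the change of medium cannot be told apart. Corpus cultures were fed with 20% serum and antral cultures with 10%, and these effects likewise cannot be told apart. All groups are WT, and the labels call the lines independent without saying whether the same number in both regions stands for the same animal.

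Eph receptors are receptor tyrosine kinases that bind ephrins held on the surface of a neighbouring cell, and signals run forward into the receptor cell and in reverse into the ephrin cell. EphA receptors bind mainly ephrin-A ligands, which are tethered by a lipid anchor, and EphB receptors bind ephrin-B ligands, which span the membrane. In the intestinal crypt, EphB2 and EphB3 are known products of Wnt target genes, and ephrin-B ligands are found on the more differentiated cells, an opposition that keeps cells in their places along the crypt.

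On GRCm38, the receptor genes lie on chromosome 4 from 136647539 to 136835988 (Ephb2), chromosome 16 from 21204755 to 21223305 (Ephb3), chromosome 5 from 137350109 to 137378669 (Ephb4), chromosome 6 from 42358487 to 42373268 (Epha1), chromosome 4 from 141301240 to 141329384 (Epha2), chromosome 1 from 77367185 to 77515088 (Epha4) and chromosome 4 from 28813131 to 28967499 (Epha7). The ligand genes lie on chromosome 3 from 89271733 to 89281142 (Efna1), chromosome X from 99136130 to 99148991 (Efnb1) and chromosome 8 from 8617434 to 8661242 (Efnb2). All are annotated as protein-coding, and each value is a sum over the whole gene. Exons of Epha1 share 236 bases with Zyx on the opposite strand, and exons of Ephb4 share 33 bases with Zan. Reads of those bases could come from either gene, since the strand of counting was not given in the sources used here.

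The 250 bases before the start are shown for 4 members as examples. Of these, Ephb2 and Ephb4 were lower and Epha2 and Efnb2 were higher after Wnt inhibition. Ephb3 was also lower and Epha1 and Efnb1 were also higher, and their windows are not shown. The windows come from RefSeq on GRCm38.p6 and run 5′ to 3′ on the strand of the gene. Capitals mark CpG dinucleotides, the sites of DNA methylation.
Ephb2: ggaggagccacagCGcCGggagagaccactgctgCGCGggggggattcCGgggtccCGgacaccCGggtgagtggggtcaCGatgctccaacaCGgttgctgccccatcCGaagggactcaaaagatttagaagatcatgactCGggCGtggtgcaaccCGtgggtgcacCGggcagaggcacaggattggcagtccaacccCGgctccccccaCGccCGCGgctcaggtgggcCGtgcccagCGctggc
Ephb4: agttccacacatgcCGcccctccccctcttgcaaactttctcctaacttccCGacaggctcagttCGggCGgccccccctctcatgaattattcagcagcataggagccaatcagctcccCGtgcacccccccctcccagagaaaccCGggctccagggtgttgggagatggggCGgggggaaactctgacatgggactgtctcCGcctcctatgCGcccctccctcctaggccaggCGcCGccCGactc
Epha2: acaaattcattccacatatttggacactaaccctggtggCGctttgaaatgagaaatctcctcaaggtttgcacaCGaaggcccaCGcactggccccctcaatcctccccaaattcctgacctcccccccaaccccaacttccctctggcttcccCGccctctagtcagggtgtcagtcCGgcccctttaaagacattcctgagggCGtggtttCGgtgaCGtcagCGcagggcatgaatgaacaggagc
Efnb2: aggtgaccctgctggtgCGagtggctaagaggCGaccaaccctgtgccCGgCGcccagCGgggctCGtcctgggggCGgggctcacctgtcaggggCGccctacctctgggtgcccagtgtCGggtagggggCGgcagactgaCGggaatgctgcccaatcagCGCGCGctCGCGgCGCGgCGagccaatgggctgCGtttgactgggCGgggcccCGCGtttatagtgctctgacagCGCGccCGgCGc
These windows are chr4:136836013-136836262 on the minus strand, chr5:137349859-137350108 on the plus strand, chr4:141300971-141301220 on the plus strand and chr8:8661243-8661492 on the minus strand. The Ephb2 window holds 20 CpG dinucleotides, the Ephb4 window 12, the Epha2 window 9 and the Efnb2 window 27, against a median of 6 (quartiles 2 and 16) over 32851 promoters of the same length. G and C make up 68.4% of the Ephb2 window, 64% of Ephb4, 55.6% of Epha2 and 72% of Efnb2. The median over all promoters is 52.4% (quartiles 45.2% and 61.2%), and the Epha2 window lies between these quartiles. The TCF/LEF words ATCAAAG and AACAAAG were searched on both strands, from 250 bases before to 50 after the start. Neither word occurred in any of the 12 windows of the 10 members, while 3.73% of all promoters held ATCAAAG, 5.85% held AACAAAG and 9.33% held at least 1 of them. The absence of a word says only that these letters are not in these windows.

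Library totals ranged from 18858022 to 31656696 counts. An upper limit of 3 counts was set for a reading of 0. It equals 0.0889 to 0.177 CPM, a gene's reads as a rate per TMM-scaled library size. Those limits cover counting error only. The 6 epithelial markers (Epcam, Cdh1, Krt8, Krt18, Krt19 and Cldn18) were detected in every group and their summed level moved with treatment, carried mainly by Krt8 and Krt19. It was 8696 to 9632 CPM in corpus vehicle and 16545 to 18041 CPM in corpus inhibited, and 9121 to 10570 CPM in antrum vehicle and 16501 to 18702 CPM in antrum inhibited. Epcam differed in direction. In corpus its mean was 525 ± 15.6 CPM with vehicle against 379 ± 92.8 CPM with inhibition (SD, n = 3 each), and in antrum 575 ± 7.88 against 466 ± 14.4 CPM (SD, n = 3 each). The part of these markers in the changes below was not tested. Endothelial markers, which matter because Ephb4 and Efnb2 are also vessel genes, summed to 32.4 to 47.9 CPM in corpus vehicle, 27.3 to 48.4 CPM in corpus inhibited, 20.5 to 29.6 CPM in antrum vehicle and 20.0 to 24.9 CPM in antrum inhibited. Of this list Emcn was at 0 in all 12 libraries, while Pecam1, Cdh5, Kdr, Tek and Esam had counts in every group. The corpus markers (Atp4a, Atp4b, Cblif and Pgc) summed to 131 to 364 CPM in corpus vehicle and 16.7 to 20.4 CPM in corpus inhibited, and to 84.9 to 127 CPM in antrum vehicle and 11.7 to 34.1 CPM in antrum inhibited. Corpus and antrum vehicle libraries did not overlap in this sum, by a narrow margin (131 against 127 CPM), and the inhibited groups of the 2 regions did overlap. The antral markers Pdx1 and Gast, nearly all Pdx1, summed to 19.8 to 27.2 CPM in corpus vehicle and 29.8 to 33.0 CPM in antrum vehicle, and to 28.4 to 41.9 CPM in corpus inhibited and 43.5 to 48.0 CPM in antrum inhibited. Pdx1 was thus read in corpus libraries too. Over all libraries the fibroblast markers summed to 0.274 to 1.47 CPM, the neuronal and glial markers to 0.933 to 2.79 CPM and the immune markers to 10.2 to 52.2 CPM. Of the immune list the macrophage gene Adgre1 was at 0 in all 12, while Ptprc, Cd3e, Cd68, Csf1r and Lyz2 each had counts in some libraries. On the second principal component (18.6% of the variance), both libraries of corpus line 8028 lay at 1.78 and -25.3, while the other corpus libraries lay at 28.2 to 40.9. The antral libraries lay at -34.2 to -7.9. The inhibited library of corpus line 8028 thus lay within the antral range, and its vehicle library lay between the antral and the other corpus libraries. Genes that resemble ribosomal RNA took 17.2% of the counts of antral vehicle line 8025 and 6.87% of antral vehicle line 8028, against 0.839% to 3.45% elsewhere. For the 10 members, a call that changes without the line or the libraries above is given beside its result. Leaving out all of them together keeps a single antral vehicle library, and not every call that changed in that setting is named.

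The Wnt target genes Lgr5 and Axin2 were read first as a check of the treatment. Lgr5, a stem cell receptor for R-spondin, stood at 51.1, 51.1 and 42.4 CPM in corpus vehicle and at 0.206, 1.03 and 1.77 CPM in corpus inhibited (lines 8025, 8026 and 8028, the order used throughout). In antrum it went from 46.3, 40.04 and 48.8 CPM to 1.83, 1.42 and 1.25 CPM. Axin2, a feedback inhibitor of the pathway, stood at 70.7, 64.2 and 71.4 CPM in corpus vehicle against 3.71, 5.39 and 18.7 CPM after inhibition, and at 70.1, 79.0 and 77.4 CPM in antrum vehicle against 11.5, 14.3 and 11.3 CPM. No inhibited library reached a vehicle library for either gene. Inhibited corpus line 8028 kept the highest level of both genes within its group.

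The receptors Ephb2, Ephb3 and Ephb4 fell in both regions, and the receptors Epha1 and Epha2 and the ligands Efnb1 and Efnb2 rose in both. Epha4, Epha7 and Efna1 did not pass the test in either region. With the line as a block, which compares each line with itself, Epha7 passed in both regions (edgeR adjusted p = 0.00645 in corpus and 0.0411 in antrum) and Epha4 in corpus (adjusted p = 0.0259). Changes were tested with edgeR's quasi-likelihood test over 16152 genes with Benjamini-Hochberg adjusted p-values, and a gene was called at an adjusted p below 0.05. In corpus 7 of 10 members were called, 4 higher and 3 lower, where 30.9% of all genes were called, 15.5% higher and 15.4% lower. In antrum 7 of 10 were called, again 4 higher and 3 lower, against 29.7% of all genes, 16.3% higher and 13.4% lower. Without both libraries of corpus line 8028, 8 members were called in corpus, and 36.7% of all genes. Leaving out antral vehicle lines 8025 and 8028 gave 5 members in antrum, and 16.1% of all genes. The blocked fit called 9 members and 43.5% of all genes in corpus, and 8 members and 40.8% of all genes in antrum. The median log2 change of the 10 members was 0.30 in corpus, against -0.04 over all genes tested, and 0.28 in antrum, against -0.04. In absolute size the median was 0.52 in corpus and 0.47 in antrum, against 0.28 and 0.29 over all genes. In corpus the inhibited and vehicle libraries did not overlap for 8 members (40.8% of all genes did not overlap), and in antrum for 7 (48.7% of all genes). In bulk RNA, fewer cells of a type and less RNA per cell cannot be told apart.

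**Figure D1:**
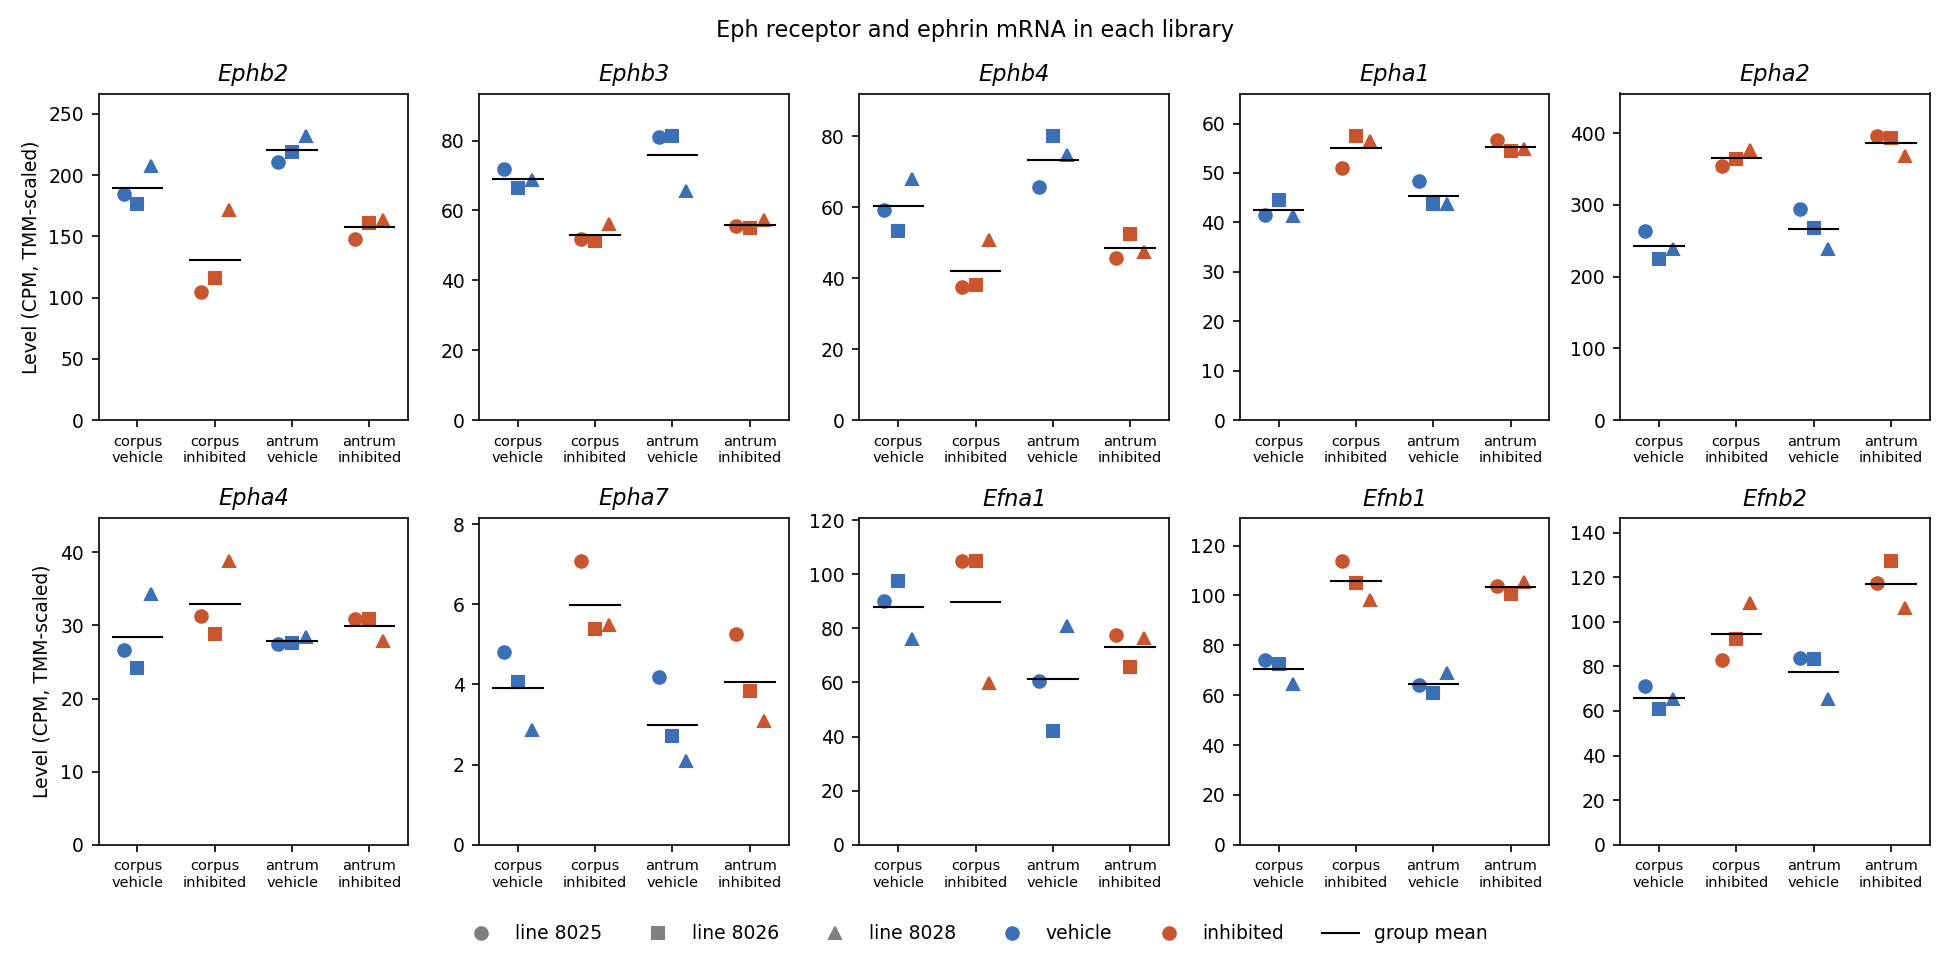
Level of each of the 10 genes in each of the 12 libraries, in CPM scaled by TMM, with 1 panel per gene and its own axis from 0. Points are libraries, shapes are lines, blue is vehicle, orange is inhibited and the bar is the mean of 3 libraries. The 3 EphB receptors sit lower after inhibition and Epha1, Epha2, Efnb1 and Efnb2 sit higher, in both regions, without overlap of the groups within a region.

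Ephb2 encodes the EphB receptor best known as a marker of crypt stem and progenitor cells. Its level was 185, 176 and 207 CPM in corpus vehicle and 105, 116 and 172 CPM in corpus inhibited. In antrum it was 211, 219 and 232 CPM with vehicle and 148, 161 and 164 CPM with inhibition. Every inhibited library lay below every vehicle library of its region, and inhibited corpus line 8028 was the nearest to its vehicle group. The log2 change was -0.53 ± 0.149 (SE, n = 3 per group) in corpus, with an edgeR adjusted p of 0.0189, and -0.49 ± 0.149 in antrum, with an adjusted p of 0.0294. This call was the least firm of the 7. In corpus it was lost without vehicle line 8028 (adjusted p = 0.0805), inhibited line 8025 (0.063) or inhibited line 8026 (0.0786), without both libraries of line 8025 (0.101) or 8026 (0.106), and in a fit of the 6 corpus libraries alone (0.0849). Without both libraries of corpus line 8028 the change was -0.68, with an adjusted p of 7.75e-05. In antrum it was lost without any 1 of the 6 antral libraries (adjusted p from 0.0526 to 0.103), without both libraries of any antral line (0.123 to 0.143), without the 2 vehicle libraries rich in ribosomal sequence (0.183), and with no filter on low counts (0.0557), whereas a fit of the 6 antral libraries alone gave 0.000756. The direction was lower in all 30 alternatives in each region.

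Ephb3 encodes the receptor that shares the crypt base with EphB2. It went from 71.7, 66.5 and 68.6 CPM to 51.8, 51.2 and 56.0 CPM in corpus. In antrum it went from 81.0, 81.3 and 65.5 CPM to 55.4, 54.9 and 57.4 CPM. The 6 inhibited libraries lay close together at 51.2 to 57.4 CPM and all 6 vehicle libraries lay above them, with antral vehicle line 8028 the lowest of these. The log2 scale change was -0.38 ± 0.0821 in corpus (edgeR adjusted p = 0.00466) and -0.44 ± 0.0822 in antrum (adjusted p = 0.00191). Without both libraries of corpus line 8025 the corpus call was lost, with an adjusted p of 0.0558.

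Ephb4 encodes a receptor with a preference for ephrin-B2, best known from the border between arteries and veins. Its level was 59.2, 53.4 and 68.0 CPM in corpus vehicle and 37.7, 38.2 and 50.7 CPM in corpus inhibited, and 65.6, 80.0 and 74.7 CPM in antrum vehicle and 45.7, 52.4 and 47.5 CPM in antrum inhibited. The groups of a region did not overlap, although inhibited corpus line 8028 came close to vehicle line 8026. On the log2 scale it changed by -0.51 ± 0.129 in corpus (edgeR adjusted p = 0.0105) and -0.60 ± 0.128 in antrum (adjusted p = 0.00455). The corpus call was lost without vehicle line 8028 (adjusted p = 0.0559), inhibited line 8026 (0.0519) or both libraries of line 8025 (0.0795), and the antral call held in all 30 alternatives. Zan, which shares exon bases with Ephb4, rose, by 0.59 on the log2 scale in corpus (adjusted p = 0.00333) and 0.81 in antrum (adjusted p = 0.000521).

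Epha2 encodes an EphA receptor of epithelial cell contacts and had the highest level per length of the family. It measured 264, 225 and 239 CPM with vehicle against 355, 365 and 376 CPM with inhibition in corpus, and 294, 267 and 239 CPM against 396, 393 and 369 CPM in antrum. The lowest inhibited library, at 355 CPM, stood above the highest vehicle library, at 294 CPM, across both regions. Its log2 change was 0.59 ± 0.0819 in corpus (edgeR adjusted p = 0.000284) and 0.53 ± 0.0819 in antrum (adjusted p = 0.000569), or 1.5-fold and 1.45-fold. Both calls held in all 30 alternatives.

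Epha1 encodes an EphA receptor of epithelia. It was 41.6, 44.5 and 41.4 CPM in corpus vehicle and 51.0, 57.4 and 56.5 CPM in corpus inhibited, and 48.4, 43.7 and 43.7 CPM in antrum vehicle and 56.7, 54.4 and 54.9 CPM in antrum inhibited. The 6 inhibited libraries again stood above the 6 vehicle libraries. The fitted log2 change was 0.37 ± 0.0672 in corpus (edgeR adjusted p = 0.00156) and 0.29 ± 0.0674 in antrum (adjusted p = 0.00706), the smallest of the 7 called members in each region. With total-count scaling both calls were lost (adjusted p = 0.0689 in corpus and 0.0723 in antrum), and leaving out both antral libraries of line 8026 (0.0628) or 8028 (0.0593) also ended the antral call. Zyx, which shares exon bases with Epha1, changed by 0.21 in corpus (adjusted p = 0.199) and 0.14 in antrum (adjusted p = 0.39).

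Epha4 encodes a receptor that binds ligands of both classes. Its level was 26.6, 24.2 and 34.3 CPM in corpus vehicle and 31.2, 28.9 and 38.9 CPM in corpus inhibited, and 27.5, 27.6 and 28.4 CPM in antrum vehicle and 30.9, 30.9 and 27.9 CPM in antrum inhibited. Line 8028 was the highest of both corpus groups, and the groups overlapped in both regions. The log2 change was 0.22 (95% interval -0.09 to 0.53, edgeR adjusted p = 0.238) in corpus and 0.10 (-0.21 to 0.41, adjusted p = 0.592) in antrum. With the organoid line as a block the corpus adjusted p was 0.0259, without corpus vehicle line 8028 it was 0.0294 and without both libraries of that line 0.0298.

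Epha7 was the lowest of the 10, at 4.8, 4.05 and 2.86 CPM in corpus vehicle and 7.09, 5.39 and 5.49 CPM in corpus inhibited. In antrum it was 4.19, 2.7 and 2.09 CPM with vehicle and 5.25, 3.84 and 3.09 CPM with inhibition. The corpus groups did not overlap and the antral groups did. Within each region the line numbered 8025 was the highest of both groups. On the log2 scale the change was 0.62 (95% interval -0.03 to 1.26, edgeR adjusted p = 0.117) in corpus and 0.46 (-0.21 to 1.13, adjusted p = 0.257) in antrum. With the line as a block both passed, with adjusted p-values of 0.00645 and 0.0411.

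Among the ligands, Efnb1 had the smallest adjusted p of the 10 members in both regions. It encodes ephrin-B1, a ligand of EphB receptors that lies on the X chromosome. It measured 74.2, 72.6 and 64.6 CPM with vehicle against 114, 105 and 98.2 CPM with inhibition in corpus, and 63.9, 60.7 and 69.0 CPM against 104, 101 and 105 CPM in antrum. The lowest of the 6 inhibited libraries, at 98.2 CPM, was well above the highest of the 6 vehicle libraries, at 74.2 CPM. Its log2 change was 0.59 ± 0.0754 in corpus (edgeR adjusted p = 0.000169) and 0.68 ± 0.0758 in antrum (adjusted p = 6.08e-05), or 1.5-fold and 1.60-fold. Both calls held in all 30 alternatives.

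Efnb2 encodes ephrin-B2, the partner of EphB4. Its level was 71.3, 61.1 and 65.6 CPM in corpus vehicle and 82.9, 92.3 and 108 CPM in corpus inhibited, and 83.7, 83.2 and 65.4 CPM in antrum vehicle and 117, 127 and 106 CPM in antrum inhibited. Groups did not overlap within a region, but inhibited corpus line 8025, at 82.9 CPM, lay at the level of the 2 higher antral vehicle libraries. The fitted log2 change was 0.52 ± 0.120 in corpus (edgeR adjusted p = 0.00701) and 0.60 ± 0.121 in antrum (adjusted p = 0.0032). The corpus call was lost with total-count scaling (adjusted p = 0.0529) and without both libraries of line 8026 (0.0707), and the antral call without the vehicle libraries of lines 8025 and 8028 (0.0636).

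Efna1 encodes ephrin-A1, a ligand of EphA2. Its libraries were the most scattered of the abundant members. It stood at 90.1, 97.5 and 76.2 CPM in corpus vehicle and 105, 105 and 59.7 CPM in corpus inhibited, and at 60.5, 42.2 and 80.8 CPM in antrum vehicle and 77.5, 65.7 and 76.5 CPM in antrum inhibited. Within corpus, lines 8025 and 8026 were higher after inhibition and line 8028 was lower. The log2 change was 0.03 (95% interval -0.52 to 0.58, edgeR adjusted p = 0.94) in corpus and 0.26 (-0.30 to 0.82, adjusted p = 0.443) in antrum. Without corpus line 8028 and the antral vehicle libraries of lines 8025 and 8028, which leaves a single antral vehicle library whose spread is taken from the other groups, the antral change was 0.82 with an adjusted p of 0.000326.

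**Figure D2:**
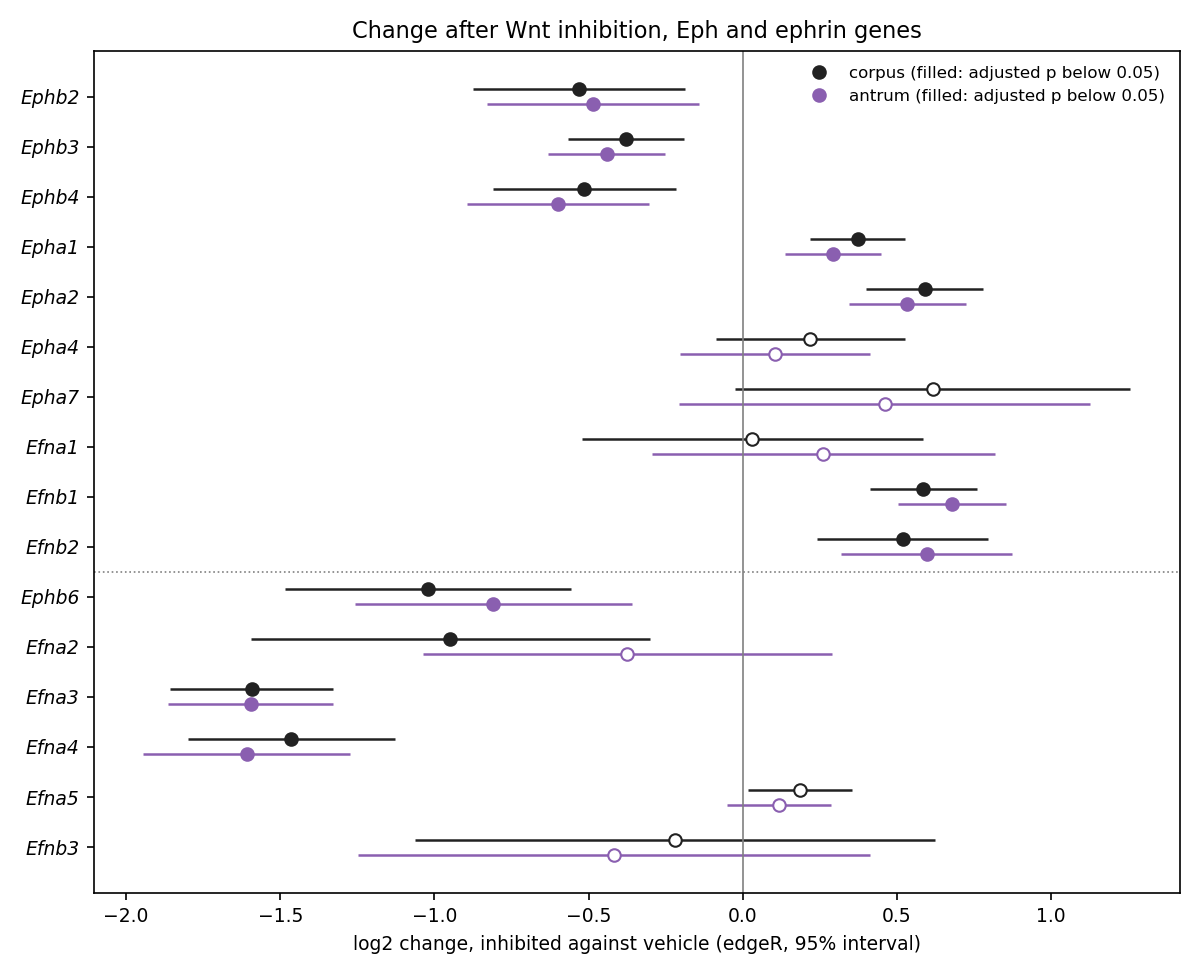
Log2 change of inhibited against vehicle for the 16 Eph and ephrin genes that could be tested, with 95% intervals, corpus in black and antrum in purple, filled where the edgeR adjusted p was below 0.05. The 10 members stand above the dotted line and the 6 other genes of the family below it. Estimates of the 2 regions lie close together for nearly every gene, and Efna3 and Efna4 lie furthest to the left.

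The same comparison can be read inside each line, as the ratio of its inhibited to its vehicle library, over 6 pairs. Ephb2 was lower in 6 of 6 pairs, with ratios from 0.568 to 0.829 and a median of 0.704. Ephb3 was lower in 6 of 6 pairs (0.676 to 0.876) and Ephb4 in 6 of 6 (0.636 to 0.745). The ratio of Epha1 ran from 1.17 to 1.37, that of Epha2 from 1.34 to 1.62, that of Efnb1 from 1.45 to 1.66 and that of Efnb2 from 1.16 to 1.65, all higher in 6 of 6 pairs. Epha7 was also higher in 6 of 6 pairs, from 1.25 to 1.92. Epha4 was higher in 5 pairs and lower in 1, and Efna1 was higher in 4 and lower in 2. Corpus line 8028 gave the weakest corpus fall of Ephb2 (0.829), Ephb3 (0.816) and Ephb4 (0.745). Antral line 8028, which was not paired with it, gave the weakest antral fall of Ephb3 (0.876) and the strongest of Ephb4 (0.636).

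**Figure D3:**
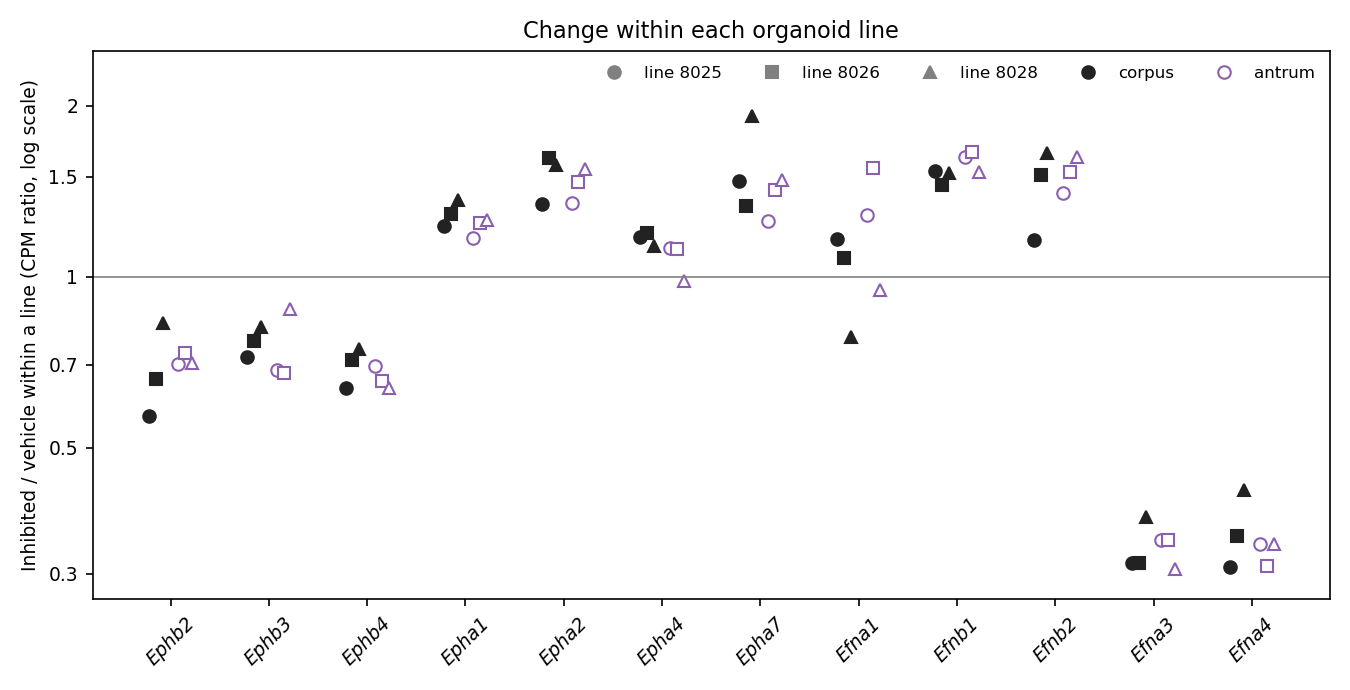
Ratio of the inhibited to the vehicle library of the same line, on a log axis, for the 10 members and for Efna3 and Efna4. Shapes are lines, filled black points are corpus and open purple points are antrum. All 6 points lie below 1 for Ephb2, Ephb3, Ephb4, Efna3 and Efna4 and above 1 for Epha1, Epha2, Epha7, Efnb1 and Efnb2, and Epha4 and Efna1 lie on both sides.

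Levels of the 10 members were compared with each other per kilobase of exon (CPM per kb). In corpus vehicle Epha2 (51.9 ± 4.23 CPM per kb, SD, n = 3) and Efna1 (48.0 ± 5.92) stood first and overlapped each other. Among the 10 they were followed by Efnb1 (20.4 ± 1.49), Ephb2 (15.0 ± 1.28) and Ephb4 (12.98 ± 1.58), the last 2 of which overlapped. Epha1 (10.8 ± 0.443), Ephb3 (10.4 ± 0.394) and Efnb2 (9.63 ± 0.751) overlapped in turn, and Epha4 (3.52 ± 0.652) and Epha7 (0.395 ± 0.0989) were lowest. In antrum vehicle the levels were Epha2 57.1, Efna1 33.4, Efnb1 18.7, Ephb2 17.5, Ephb4 15.8, Epha1 11.5, Ephb3 11.4, Efnb2 11.3, Epha4 3.46 and Epha7 0.303 CPM per kb. After inhibition Efnb2 stood above Ephb2, at 13.8 against 10.4 CPM per kb in corpus and 17.1 against 12.5 CPM per kb in antrum, the reverse of their order with vehicle. These 2 genes overlapped between libraries in corpus inhibited and not in antrum inhibited. The reversal depends on the lengths used, the merged exons of each gene (12608 bases for Ephb2 and 6855 for Efnb2). In CPM, Ephb2 stayed above Efnb2 after inhibition, at means of 131 against 94.5 in corpus and 158 against 117 in antrum.

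**Figure D4:**
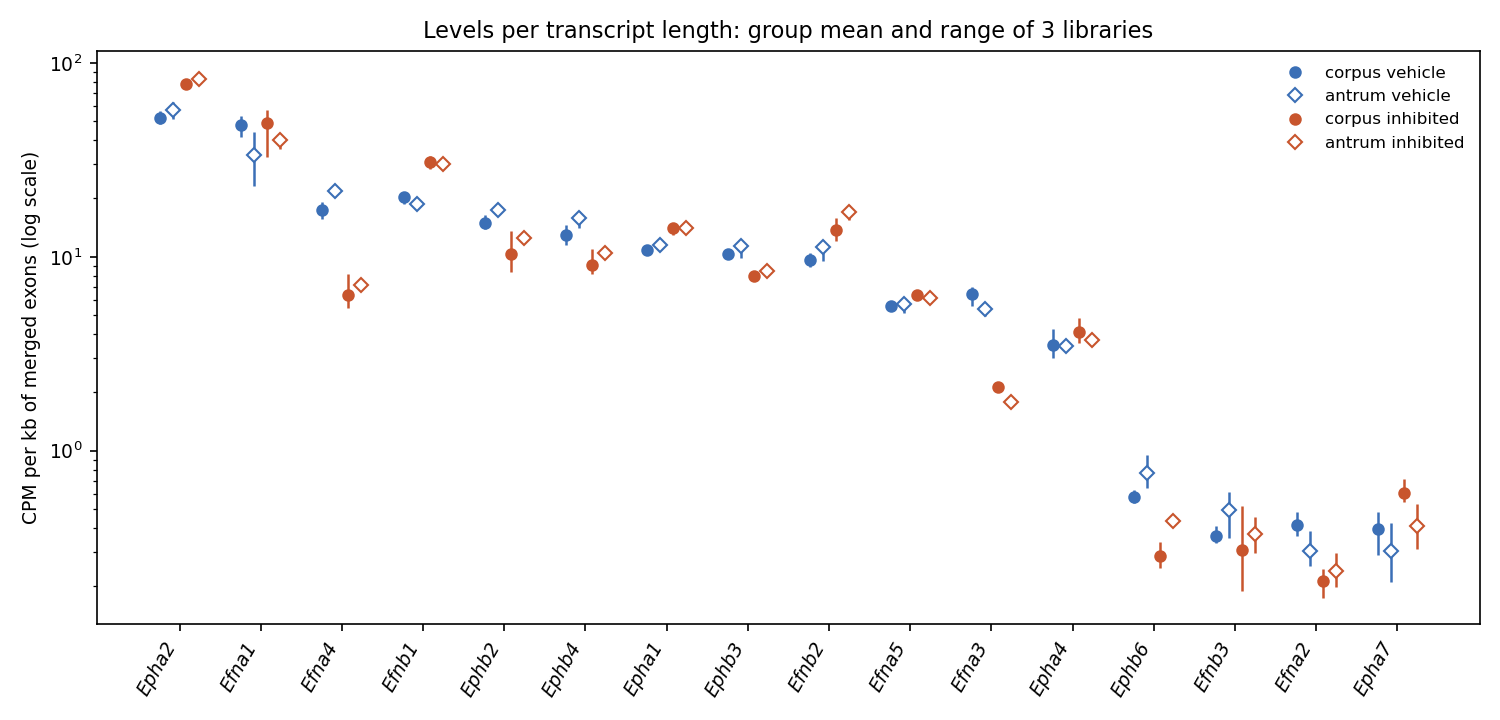
Mean level per kilobase of merged exons, on a log axis, of the 16 Eph and ephrin genes with testable counts, with lines spanning the 3 libraries of a group. Filled circles are corpus, open diamonds are antrum, blue is vehicle and orange is inhibited. Epha2 is highest in every group and Epha7, Efna2, Efnb3 and Ephb6 stay below 1 CPM per kb.

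Summed by class on this per-length scale, the 3 EphB receptors came to 38.4 ± 2.97 CPM per kb in corpus vehicle and 27.5 ± 4.8 in corpus inhibited, and 44.8 ± 1.93 in antrum vehicle and 31.4 ± 1.26 in antrum inhibited (SD, n = 3). The 4 EphA receptors measured 66.6 ± 4.01 with vehicle against 96.8 ± 3.38 with inhibition in corpus, and 72.3 ± 6.59 against 100.8 ± 3.64 in antrum, sums that rest mostly on Epha2. The share of EphB in the 7 receptors was 36.5 ± 1.79% in corpus vehicle and 22.0 ± 2.39% in corpus inhibited, and 38.3 ± 2.66% and 23.8 ± 1.19% in antrum. In corpus inhibited, line 8028 held 24.8% and the other lines 20.6% and 20.7%. The ligands Efnb1 and Efnb2 together came to 30.0 ± 1.82 CPM per kb in corpus vehicle and 44.4 ± 0.617 in corpus inhibited, and 30.0 ± 0.637 in antrum vehicle and 47.0 ± 0.858 in antrum inhibited. The ratio of EphB receptor to ephrin-B mRNA was 1.28 ± 0.158 in corpus vehicle and 0.619 ± 0.111 in corpus inhibited, and 1.49 ± 0.0876 and 0.668 ± 0.0295 in antrum. On this scale the receptor sum exceeded the ligand sum in each of the 6 vehicle libraries. In each of the 6 inhibited libraries the receptor sum was below the ligand sum. Which sum is the larger after inhibition depends on the merged exon lengths used, 12608 bases for Ephb2 against 3452 for Efnb1. These sums were formed from genes that moved in opposite directions and carry no test.

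**Figure D5:**
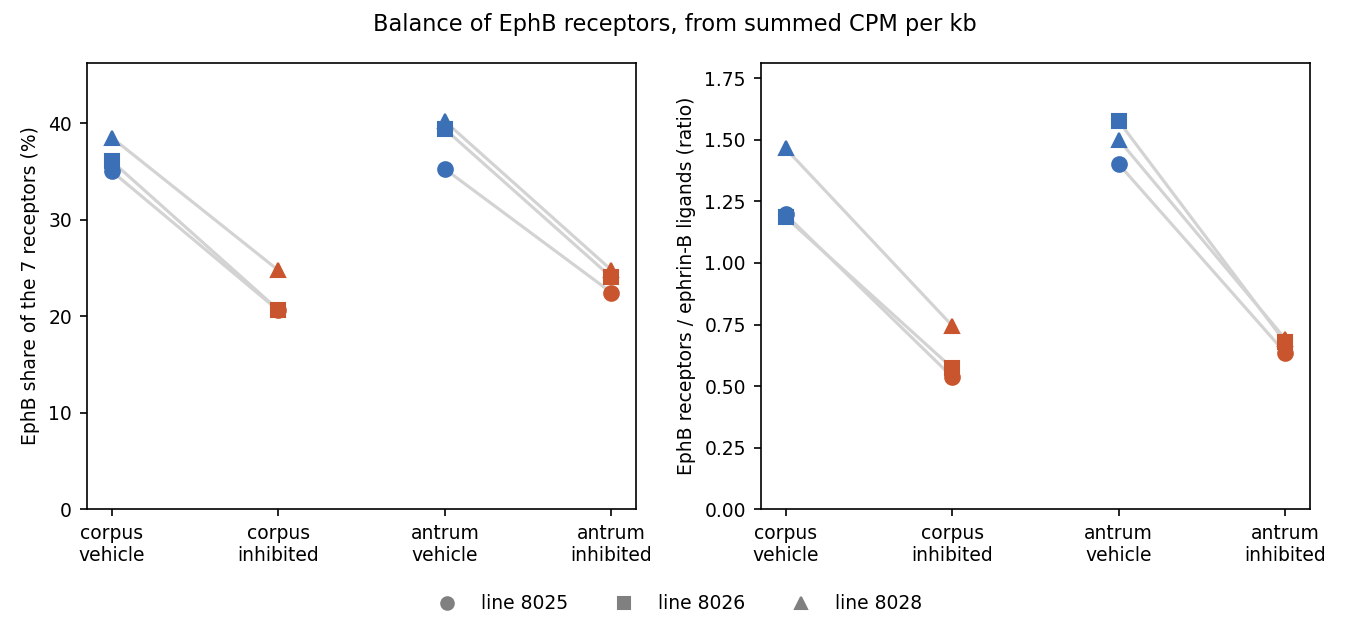
EphB share of the summed CPM per kb of the 7 receptors (left, in percent) and ratio of summed EphB receptor to summed ephrin-B ligand (right), 1 point per library and grey lines joining the libraries of a line. Blue is vehicle and orange is inhibited. The share drops in all 6 lines. On this per-length scale the ratio is above 1 in every vehicle library and below 1 in every inhibited library.

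Corpus and antrum were then compared under the same treatment. With vehicle, 0 of 10 members passed (edgeR, 0.198% of all genes called), with 1 member, Ephb4, at an unadjusted p below 0.05, and 0 called by DESeq2 or by limma-voom. The log2 difference, antrum minus corpus, was 0.29 for Ephb4 (95% interval -0.01 to 0.58, adjusted p = 0.31), 0.22 for Ephb2 (-0.12 to 0.56, adjusted p = 0.492) and -0.53 for Efna1 (-1.08 to 0.03, adjusted p = 0.327). Ephb2 was the only member whose vehicle groups did not overlap, where 22.5% of all genes did not. After inhibition 0 of 10 members passed again (0.0619% of all genes), with Efnb2 at an unadjusted p below 0.05 and 0 called by DESeq2 or limma-voom. The difference was 0.31 for Efnb2 (0.03 to 0.58, adjusted p = 0.474) and -0.56 for Epha7 (-1.2 to 0.09, adjusted p = 0.567). Epha7 was the only member whose inhibited groups did not overlap (11.8% of all genes).

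The calls in those region comparisons changed without corpus line 8028. On the second principal component this line stood apart from the other corpus libraries, towards the antral ones. Leaving out the corpus line nearest to the antral libraries favours a wider difference between regions, and leaves fewer corpus lines. Because that position was read from the same data, the adjusted p-values below are likely too small. They describe how the calls depend on this line and do not establish a regional difference. Without both of its libraries, Ephb2 was higher in antral than in corpus vehicle by 0.29 (edgeR adjusted p = 0.0351) and Ephb4 by 0.39 (adjusted p = 0.0343), and 6.6% of all genes were called. In the inhibited groups Ephb2 was then higher in antrum by 0.51 (adjusted p = 0.00349), Ephb4 by 0.35 (adjusted p = 0.0334) and Efnb2 by 0.41 (adjusted p = 0.0434), with 14.6% of all genes called. Without inhibited corpus line 8028 alone, Ephb2 (0.51, adjusted p = 0.0115) and Efnb2 (0.42, adjusted p = 0.0422) passed among inhibited libraries, with 11.4% of all genes called. Without both libraries of corpus line 8028 and the antral vehicle libraries of lines 8025 and 8028, 3 members passed with vehicle (13.9% of all genes) and 4 with inhibition (19.3% of all genes). The log2 difference of Efna1, antrum minus corpus, was then -1.15 with vehicle (adjusted p = 0.000939) and -0.52 with inhibition (adjusted p = 0.00431). In that setting the vehicle comparison rests on a single antral library.

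Whether the response itself differed between regions was tested as the antral minus the corpus change. No member passed with edgeR (0 of 10, 0.00619% of all genes called), 0 had an unadjusted p below 0.05, and DESeq2 and limma-voom called 0. The difference was 0.05 for Ephb2 (95% interval -0.44 to 0.53), -0.06 for Ephb3 (-0.33 to 0.21) and -0.09 for Ephb4 (-0.50 to 0.33). It was -0.06 for Epha2 (-0.32 to 0.21), 0.09 for Efnb1 (-0.15 to 0.34) and 0.08 for Efnb2 (-0.31 to 0.47). The adjusted p was 1 for each of the 10 members. Intervals of this width leave room for a regional difference in response about as large as the response for Ephb2 and Ephb4, and a p above the threshold does not show that the regions respond alike.

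The 12 other genes of the family were read beside the 10. Epha5 and Epha6 were at 0 counts in all 12 libraries, Epha3, Epha8, Epha10 and Ephb1 summed to at most 3 counts in any group, and these 6 were not tested. Of the 6 tested, 4 fell and 0 rose in corpus and 3 fell and 0 rose in antrum. Of all genes, 15.4% were called lower and 15.5% higher in corpus, and 13.4% lower and 16.3% higher in antrum. No test set the 6 genes against these shares. Efna3 and Efna4, which encode ephrin-A ligands and lie beside Efna1 on chromosome 3 (89313899 to 89322965 and 89333390 to 89338028), had the largest changes of the family. Efna3 measured 17.1, 16.3 and 13.5 CPM with vehicle against 5.36, 5.09 and 5.12 CPM with inhibition in corpus, and 13.4, 12.03 and 13.9 CPM against 4.61, 4.14 and 4.26 CPM in antrum. Efna4 was 28.1, 25 and 30.8 CPM in corpus vehicle and 8.65, 8.73 and 12.98 CPM in corpus inhibited, and 34.7, 37.0 and 32.5 CPM in antrum vehicle and 11.7, 11.5 and 10.99 CPM in antrum inhibited. Both were separated from vehicle in every line, unlike their neighbour Efna1. The log2 change of Efna3 was -1.59 ± 0.114 in corpus and -1.60 ± 0.116 in antrum, a fall of 3.01-fold and 3.02-fold (edgeR adjusted p = 4e-06 and 3.81e-06). For Efna4 it was -1.46 ± 0.145 and -1.61 ± 0.145, a fall of 2.76-fold and 3.05-fold (adjusted p = 3.08e-05 and 1.51e-05). These 4 calls held in all 30 alternatives. Antisense genes overlap exons of Efna3 by 344 bases and of Efna4 by 168 bases, on the opposite strand.

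Ephb6, which encodes a receptor without kinase activity, fell at a low level, by 1.02 on the log2 scale in corpus (SE 0.201, edgeR adjusted p = 0.00269) and by 0.81 in antrum (SE 0.194, adjusted p = 0.00881). Its mean was 2.19 CPM in corpus vehicle and 1.08 CPM in corpus inhibited, and 2.88 and 1.65 CPM in antrum. Leaving out both antral libraries of line 8028 ended the antral call (adjusted p = 0.0818), as did leaving out the vehicle libraries of lines 8025 and 8028 (0.0928). Efna2 fell in corpus, from a mean of 0.888 to 0.456 CPM (log2 change -0.95 ± 0.280, adjusted p = 0.024). That call was lost in 10 of its 29 alternatives, among them leaving out vehicle line 8026 (0.0558), vehicle line 8028 (0.0911), inhibited line 8025 (0.0969), inhibited line 8026 (0.0658) or both libraries of any corpus line (0.0841 to 0.116). The log2 difference of Efna5 was 0.18 in corpus (adjusted p = 0.0773) and 0.12 in antrum (adjusted p = 0.252). Its corpus value passed without inhibited corpus line 8028 (0.0416) or antral vehicle line 8026 (0.0305), with RLE scaling (0.047) and with DESeq2 (0.0322). For Efnb3 the log2 difference was -0.22 in corpus (adjusted p = 0.69) and -0.42 in antrum (adjusted p = 0.41).

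Partners of the pathway were read from lists of adaptors and kinases of forward signalling and of genes of reverse signalling and ephrin shedding. Of 17 tested forward-signalling genes, 2 rose, 2 fell and 13 did not pass in corpus, and 4 rose, 2 fell and 11 did not pass in antrum. Of 7 tested reverse-signalling and shedding genes, 1 rose, 1 fell and 5 did not pass in corpus, and 3 rose, 1 fell and 3 did not pass in antrum. The median log2 changes of the forward and the reverse list were -0.02 and 0.07 in corpus and -0.03 and 0.17 in antrum, against -0.04 over all genes in both. The shares of all genes called are those given above (30.9% in corpus and 29.7% in antrum), and no test set the lists against them.

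In the forward list the adaptor genes Nck2 and Crk rose. Nck2 measured 50.3 ± 1.5 with vehicle against 68.5 ± 3.59 CPM with inhibition in corpus, and 52.6 ± 1.2 against 76.2 ± 3.79 CPM in antrum (SD, n = 3), log2 changes of 0.45 and 0.54 (edgeR adjusted p = 0.000236 and 6.63e-05). It belongs to the forward and the reverse list. Crk rose by 0.40 (adjusted p = 0.000194, or 0.0594 with total-count scaling) and 0.39 (adjusted p = 0.000255). The kinase gene Abl1 fell by 0.27 in corpus (adjusted p = 0.00481) and 0.28 in antrum (adjusted p = 0.00383). Leaving out both libraries of corpus line 8025 (0.0557) or 8026 (0.0592), or of antral line 8026 (0.0564), ended its calls. The adaptor gene Grb7 fell by 0.35 in corpus (adjusted p = 0.00981) and 0.32 in antrum (adjusted p = 0.0167). Its corpus call ended without vehicle line 8028 (0.0547) or both libraries of line 8026 (0.0909) or 8028 (0.0755). Its antral call ended without vehicle line 8025 (0.0583), vehicle line 8028 (0.0654), both of these (0.278), inhibited line 8026 (0.065) or both libraries of any antral line (0.0545 to 0.113).

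In the reverse list Rgs3, a regulator of G protein signals that binds ephrin-B, fell by 0.48 on the log2 scale in corpus (edgeR adjusted p = 0.000418) and 0.52 in antrum (adjusted p = 0.000278). Sdcbp, the gene of the scaffold syntenin, rose by 0.31 in antrum (adjusted p = 0.0132), a call lost without both libraries of antral line 8025 (0.0847) or 8026 (0.0659) and with total-count scaling (0.0633). In corpus its log2 difference was 0.22 (adjusted p = 0.0563), which passed in 10 of 30 alternatives. Among these were the line as a block (0.0132), DESeq2 (0.0173), RLE scaling (0.0363), and leaving out inhibited corpus line 8028 (0.0171), antral vehicle line 8026 (0.0168), antral vehicle line 8028 (0.0305), or antral vehicle lines 8025 and 8028 together (0.0263). The test of the difference between regions gave 0.09 (95% interval -0.17 to 0.35, adjusted p = 1).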

How the data were processed

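Per the labels' protocols, polyA RNA from organoids was sequenced in 12 libraries. The deposited table holds the authors' expected counts per gene, per the file header; the values were already whole numbers, so rounding changed nothing. The submitters' processing notes list STAR 2.7.8a, RSEM 1.3.3, FastQC 0.11.8 and cutadapt 2.3, and the build GRCm38, without role or settings. The annotation release was not given in the sources used here, nor was the strand setting. Of 55426 rows, 5 transgene rows (2 counts in all) were left out. Counts of libraries in the same group differed by more than sampling noise, at 10.8 to 306 chi-square units per degree of freedom. Nothing says that the lines came from separate mice, so p-values measure the spread between these libraries.

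Counts were fitted with edgeR 4.0.16 in R 4.3.3 (TMM scaling, filterByExpr by group, robust quasi-likelihood, all 12 libraries, 8 residual degrees of freedom), which tested 16152 genes two-sided at an adjusted p of 0.05. Standard errors were derived from the F statistic, and 95% intervals use t with 8 degrees of freedom, which makes them wider than the moderated test. Exon lengths and positions come from GENCODE mouse release M21, where 55240 identifiers matched, and promoters from RefSeq. The gene Anks1a of the forward list had no row by that name. Results of some genes and of 1 further list are not reported here.

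Groups follow the sample labels. Within a region, line numbers pair vehicle with inhibited libraries, because every line was cultured both ways: deviations of the 6 pairs correlated at 0.157 to 0.544. Across regions the same numbers gave -0.104 to 0.277 and were not taken as pairs. The members and lists were chosen with earlier results of these data known. Genes named outside the 10 members were the other family genes, the treatment check, up to 2 rises and 2 falls with the smallest adjusted p per partner list, and genes overlapping a member's exons. Zan, Zyx and the antisense overlaps were looked up after the annotation was read. The fit was repeated with 3 other scalings (total counts, upper quartile, RLE), with other tools (limma-voom of limma 3.58.1 and DESeq2 1.42.0), with 2 other filters (none, or 1 CPM in 3 libraries), with the line as a block, on the compared groups alone, with genes like ribosomal RNA removed, and with libraries or lines left out. The fit was tested on simulated data.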

Additional observations from a re-analysis of the deposited data

How the results depend on the processing

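Over 30 alternatives per treatment comparison, none of 210 values of the 7 called members changed sign in either region; 13 in corpus and 15 in antrum lost the call, and 5 and 2 values of uncalled members gained it. Members called ranged from 4 to 9 in corpus and 5 to 8 in antrum. With the replicate block on the line, 9 members were called in corpus (7022 genes in all) and 8 in antrum (6594 genes), with Epha4 and Epha7 added in corpus and Epha7 in antrum; it ended no member's call. Leaving out 1 library or line gave 4 to 8 members in corpus, 5 to 7 in antrum, 0 to 2 between vehicle groups, 0 to 3 between inhibited groups and 0 for the difference of responses. The number of all genes called moved in the same settings. The 4 members in corpus, without line 8025, stood beside 3238 genes called in all. The 3 members between inhibited groups, without corpus line 8028, stood beside 2386 genes. That line was the corpus line nearest to the antral libraries, so leaving it out favours more calls between regions.

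Genes called over the whole table were 4985 in corpus (2550 to 6888 with 1 library or line left out, lowest without line 8026 and highest without inhibited line 8028) and 4794 in antrum (2710 to 6318, lowest without antral line 8025 and highest without corpus line 8028; 2740 without antral vehicle lines 8025 and 8028). Between vehicle groups 32 genes were called, 1 to 1080 with a library or line left out (highest without corpus line 8028). That count was 17 with RLE scaling, 18 with upper quartile, 61 with total counts, 68 with no filter, 497 with DESeq2, 21 with limma-voom, 69 with the replicate block across regions, 18 with only the 6 libraries compared and 2 without antral vehicle lines 8025 and 8028. Between inhibited groups 10 were called, 0 to 2386 with a library or line left out (highest without corpus line 8028). That count was 3 with upper quartile, 3 with total counts, 16 with no filter, 149 with DESeq2, 37 with the replicate block across regions, 0 with only the 6 libraries and 1 without the 2 antral vehicle libraries. The difference of responses gave 1 gene, 0 to 5 with a library or line left out, 9 with DESeq2 and 7 with the replicate block. Without corpus line 8028 and antral vehicle lines 8025 and 8028, a setting added after seeing the data, counts were 2356 between vehicle groups (3 members), 3275 between inhibited groups (4 members) and 20 for the difference of responses. The cause of these shifts was not tested.

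Total-count scaling moved the median of all genes in corpus by -0.16 (log2). It took the share of higher calls in corpus from 50.1% to 26.4% and in antrum from 55.0% to 44.4% (43.6% with upper quartile). Between vehicle groups that share went from 34.4% to 47.1% with RLE, 50.0% with upper quartile and 11.5% with total counts, and between inhibited groups from 80.0% to 100% with upper quartile and 66.7% with total counts. Leaving 1 antral vehicle library assumes that it varies like the other groups. Depth limits the 6 family genes near 0, and Efna2, Efnb3 and Ephb6, whose group means lie between 0.456 and 2.88 CPM.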

Other observations

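The genes whose levels most resembled those of each member across the 12 libraries were found by Pearson's r of log2(CPM + 1) over 11031 genes with a mean of at least 5 CPM. These values are descriptions without a test: all genes share the same libraries and the same separation by treatment, which alone gives high values to any pair that moved together.

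Nearest to Ephb2 were Rif1 (r = 0.984), Epcam (0.981) and Ryk (0.981). For Ephb3 they were Tpbg (0.976), Phf12 (0.972) and Cep290 (0.970), and for Ephb4 they were Stard13 (0.984), Bckdk (0.982) and Slc39a8 (0.980). Epha1 lay nearest to Kcnj11 (0.955), Shc1 (0.954) and Sharpin (0.951), and Epha2 to Inava (0.991), Actb (0.991) and Kcnj11 (0.988). The ligand gene Efnb1 lay nearest to Nagk (0.995), R3hdm4 (0.994) and Nek7 (0.993), and Efnb2 to Rhbdf1 (0.987), Syngr2 (0.982) and Slc25a24 (0.974).

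The 3 members that did not pass the treatment test had near neighbours as well. Efna1, whose libraries scattered within groups, lay nearest to Hif3a (0.988), Bnip3 (0.987) and P4ha1 (0.986), values as high as those of the members that separated by treatment. Epha7 lay nearest to Hes1 (0.970), Col4a2 (0.935) and Dse (0.930). Epha4 had the lowest of the 10 best values, with Heph (0.885) and Mycbp (0.869) among its nearest.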
